A study of Gallus gallus with 16 samples.

Results

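The comparison set chick (Gallus gallus) vagal neural crest cells in which msx1 had been targeted with CRISPR/Cas9 against cells that carried Cas9 without a guide. Its members were the 5 libraries whose titles give these groups, 3 for msx1 and 2 for the Cas9 control, of 16 libraries in the series. Every embryo was labelled wild-type and stage HH18 (Hamburger and Hamilton stage 18). Every library, control included, came from embryos electroporated with pCAG Cas9-2A-Citrine, a plasmid for Cas9 and the yellow fluorescent protein Citrine. The msx1 embryos also received 1 guide plasmid, pcU6:msx1, in which a U6 promoter drives the guide RNA. The other 11 libraries targeted sox3, sox10, tfap2b, or sox10 and tfap2b together (the double group). They served to estimate the spread between libraries and to ask which differences from the control were particular to msx1. The sox3, sox10 and tfap2b embryos received 2 guide plasmids and those of the double group 3. Contrasts of msx1 with these groups therefore cannot tell the targeted gene from the number of guide plasmids. Citrine-positive cells were sorted from dissociated vagal regions. The CAG promoter is broadly active, so the sort selects electroporated cells of that region and not neural crest by a marker of its own.

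MSX1 is a homeobox transcription factor that BMP signals induce in the dorsal neural tube and its border, where neural crest arises. In vertebrate embryos it acts mostly as a repressor of transcription, and it is known from craniofacial, tooth and limb development as well as from the neural crest gene network. Neural crest cells leave the dorsal neural tube and give rise to neurons, glia, pigment cells and, in the head and heart, mesenchyme. The vagal part supplies most of the enteric nervous system and cells of the cardiac outflow tract. The comparison addresses which transcripts differ once msx1 is targeted.

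The table gives Ensembl-style gene IDs without symbols, and 0 of them were found in the GRCg7b gene table. The targeted gene, the neural crest markers and the pathway lists were therefore not analysed here, and genes are described by position on galGal5, structure and level. How far msx1 itself was reduced, and how pure the sorted cells were, was not tested. At most 2 IDs that rose and 2 that fell are printed, and other genes are given by position. In these bulk samples fewer cells of a type and less RNA per cell cannot be told apart.

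Total counts were 19355001 and 22142722 in control replicates 1 and 2, and 5721022, 15395165 and 24929531 in msx1 replicates 1, 2 and 3. Libraries within each group were not equally far apart. The biological coefficient of variation (the spread between libraries beyond counting noise, as a share of the mean) was 0.122 between the 2 control libraries and 0.140 between msx1 replicates 1 and 2. It was 0.278 and 0.342 between those msx1 libraries and replicate 3, and its median over all 14 same-group pairs of the series was 0.345. The close pairs still differed by more than sampling noise, with a chi-square per gene of 15.1 in the control pair and 12.9 in the msx1 pair where noise alone gives about 1. Separate preparations of 1 pool of cells could also differ by this much, so the test does not tell technical from biological replicates. They were kept as separate libraries because the labels number them as replicates. Whether the replicates were separate embryos or separate sorts is not recorded in the labels. The p-values therefore rest on the spread between libraries, which may be technical.

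Replicate 3 also stood apart from the other msx1 libraries in its W-linked RNA and in a region of chromosome 14. In birds, females carry a Z and a W chromosome and males carry a pair of Z, so W-linked RNA follows the share of female cells. Genes on W held 364 and 382 CPM (counts scaled to a common library total) in the control, 842 and 843 CPM in msx1 replicates 1 and 2, and 229 CPM in replicate 3. Replicates 1 and 2 thus lay above both control libraries and replicate 3 below both. The sox3, sox10, tfap2b and double libraries held 74.1 to 302 CPM on W. Replicate 3 lay within that range, and replicates 1 and 2 lay above every other library of the series. The region on chromosome 14 (12156905 to 12164434, 4 genes, singled out after its values were known) held 1.76 and 2.30 CPM in the control, 6.99 and 7.67 CPM in msx1 replicates 1 and 2, and 712 CPM in replicate 3. Its level in the sox3, sox10, tfap2b and double libraries ran from 45.8 to 14178 CPM. What part these differences have in the gene results was not tested, and values with and without replicate 3 are given below.

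**Figure D1:**
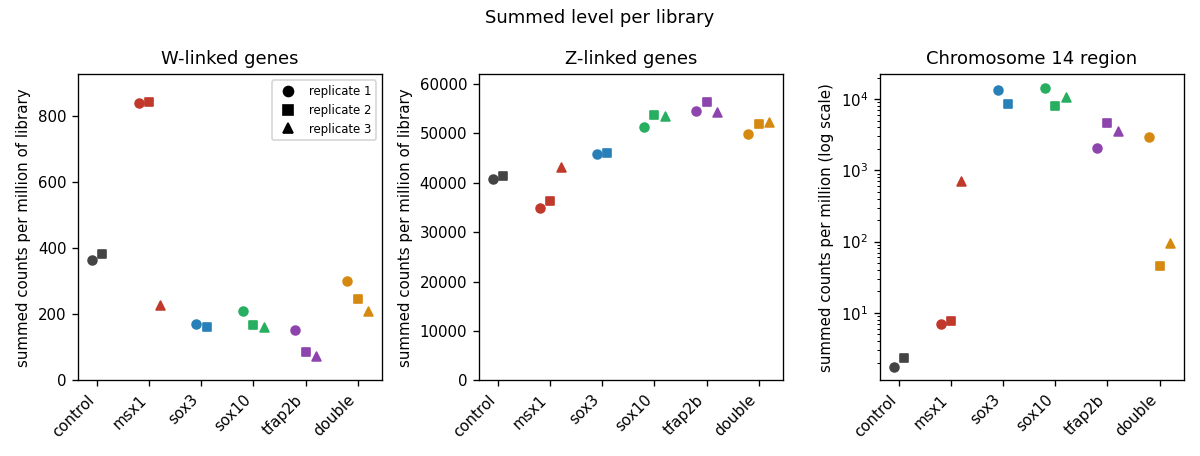
Summed CPM of W-linked genes, Z-linked genes and the chromosome 14 region (log axis) in each of the 16 libraries; colour gives the group and the marker the replicate number. In the msx1 group, replicates 1 and 2 sit together and replicate 3 apart, at 229 CPM against 842 and 843 CPM for W and at 712 CPM against 6.99 and 7.67 CPM for the chromosome 14 region.

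After msx1 targeting 151 of 14081 genes tested (1.07%) exceeded the control level and 248 (1.76%) fell below it, at a Benjamini-Hochberg adjusted p under 0.05 in edgeR's quasi-likelihood test. Together they made up 2.83% of the genes tested. The median log2 fold change was 2.14 among the higher genes (quartiles 1.57 and 3.22) and -1.73 among the lower ones (quartiles -2.27 and -1.38), against -0.05 over all genes tested. A change beyond 2-fold was seen in 140 of the 151 and 236 of the 248, and one beyond 8-fold in 47 and 13. All 399 genes had no overlap between the 3 msx1 and the 2 control libraries, but so had 50.1% of all genes tested (21.2% higher, 28.9% lower). The count rests on treating the close pairs as separate samples. With them summed to 1 library each, 0 genes passed in edgeR (584 had an unadjusted p under 0.05, against 1939 with the libraries separate), and with DESeq2 on the separate libraries 516 were higher and 515 lower. Leaving out control replicate 1 or 2 gave 42 or 63 genes, and leaving out msx1 replicate 1 or 2 gave 126 or 165.

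The higher and the lower genes differed in their control level, which is also a term of the fold change that picked them. The median control level was 11.3 CPM among the higher genes and 95.6 CPM among the lower ones, against 18.1 CPM over all genes tested (here and below, CPM of single genes are scaled by TMM, which aligns libraries on the bulk of genes). Higher genes numbered 18 and lower genes 0 among the 2183 whose control mean was under 1 CPM. From 1 to 5 CPM there were 26 and 0 of 2387. Between 5 and 50 CPM the counts were 77 and 62 of 5109, between 50 and 500 CPM 26 and 179 of 4210, and from 500 CPM 4 and 7 of 192. How far depth limits the calling of falls in genes under 5 CPM was not tested.

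**Figure D2:**
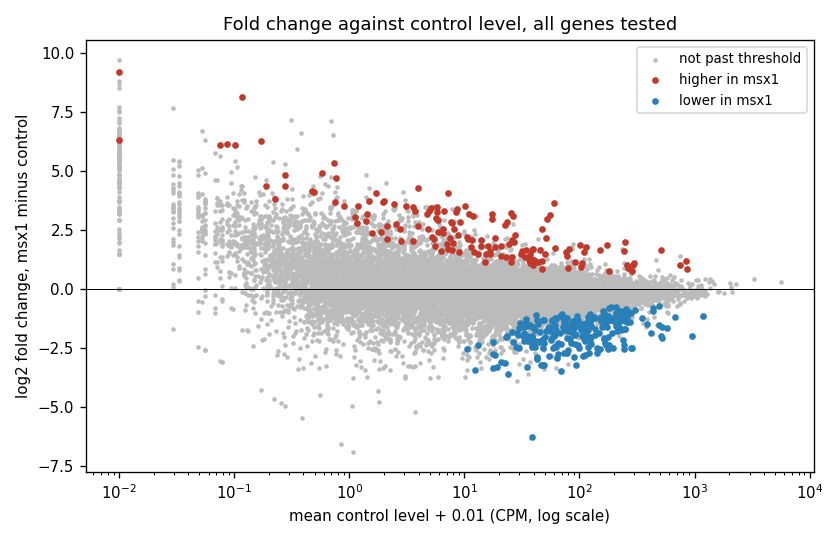
Log2 fold change (msx1 minus control) of every gene tested against its mean control level in CPM plus 0.01 (log axis); red points were higher and blue points lower at an adjusted p under 0.05. The 248 lower genes crowd at high control levels (median 95.6 CPM) and the 151 higher ones at lower levels (median 11.3 CPM). The control level is also a term of the fold change.

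Of the 100 genes with the highest control level (653 CPM or more), 90 lay within 1.5-fold of the control. Over all genes tested, the quartiles of the log2 fold change were -0.44 and 0.43. Of the 100, 3 were higher and 3 lower, against 1.07% and 1.76% of all genes tested. These 6 were picked with their values in view.

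The largest of these falls was of a 52-exon gene on chromosome 2 (23601205 to 23640175). It had 1003 and 909 CPM in the control, and 219, 213 and 285 CPM in msx1 replicates 1 to 3. The groups did not overlap, and the log2 fold change was -2.0 (SE 0.36, edgeR adjusted p = 0.00626). The gene was lower still in the groups with sox10 or tfap2b guides, at means of 35.5 to 85.2 CPM, and at 329 CPM in both sox3 libraries. Its level in the msx1 group was above the mean of the other 4 targeted groups by 1.60 on the log2 scale (edgeR adjusted p = 6.03e-05). The fall was therefore not particular to msx1.

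A gene with 4 exons on chromosome 27 (5064894 to 5066718) had 736 and 628 CPM in the control and 296, 292 and 292 CPM in the msx1 libraries. The 3 msx1 values were nearly equal, and the log2 fold change was -1.22 (SE 0.22, edgeR adjusted p = 0.00626). Against the sox3 group, at 707 and 560 CPM, the msx1 level differed by -1.11 on the log2 scale (edgeR adjusted p = 0.0327). The fall was larger in other targeted groups, and the msx1 level lay above tfap2b by 1.09 (mean 138 CPM, edgeR adjusted p = 0.000407), above the double group by 1.46 (mean 106 CPM, 6.55e-05) and above the mean of all 4 by 0.45 (0.0262). The third abundant gene that fell lies on chromosome 10 (4105084 to 4124081, 15 exons), with 1236 and 1125 CPM in the control and 552, 582 and 444 CPM in the msx1 libraries (log2 fold change -1.17, SE 0.19, edgeR adjusted p = 0.00326). Its log2 difference from the mean of the other 4 targeted groups was -0.50 (edgeR adjusted p = 0.0101). Of the 4, only tfap2b passed by itself (mean 1165 CPM, log2 difference -1.15, edgeR adjusted p = 7.08e-05), while sox3, sox10 and the double group had adjusted p-values of 0.429 to 0.547.

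Of the abundant genes that rose, one on chromosome 5 (50400209 to 50407920, 9 exons) went from 924 and 763 CPM in the control to 2334, 1739 and 1642 CPM (log2 fold change 1.18, SE 0.20, edgeR adjusted p = 0.00569). One on chromosome 21 (3211465 to 3223868, 14 exons) went from 814 and 677 CPM to 1799, 1411 and 1217 CPM (0.98, SE 0.19, edgeR adjusted p = 0.00935). One on chromosome 10 (7815470 to 7903310, 22 exons) went from 845 and 890 CPM to 1423, 1321 and 1841 CPM (0.82, SE 0.18, edgeR adjusted p = 0.0237). No msx1 library overlapped a control library for any of the 3. The chromosome 5 gene was lower in the msx1 group than in the mean of the other 4 targeted groups. That difference was -0.61 on the log2 scale (edgeR adjusted p = 0.00315), and the mean reached 4486 CPM with sox10 targeting. For the chromosome 21 gene the same difference did not pass (-0.13, edgeR adjusted p = 0.48). The chromosome 10 gene lay above the mean of the 4 by 0.37 (edgeR adjusted p = 0.027), but did not pass against sox3 or sox10 alone (0.981 and 0.948).

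At the other end, 5 genes had 0 counts in both control libraries and at least 10 counts in every msx1 library. Of all genes tested, 139 had 0 counts in both control libraries and 33 in all 3 msx1 libraries. The 5 were chosen by these values, which describe them. With a floor of 3 counts over the control group (0.0629 CPM), the 5 were at least 21.1-fold to at least 115-fold higher, a bound that covers counting error only. The bound was largest for a 17-exon gene on chromosome 4 (81396418 to 81418574) with 6.17, 14.4 and 1.24 CPM in the msx1 libraries, which missed the threshold (edgeR adjusted p = 0.0576). A 5-exon gene on chromosome 8 (3620501 to 3624059) passed it (0.0253), at 3.23, 10.0 and 1.83 CPM. The other 3 lie on chromosomes 2 (21036209 to 21042939, and 103416843 to 103491928, the latter overlapping another gene) and 23 (5676656 to 5684318), at 0.326 to 2.88 CPM in the msx1 libraries (edgeR adjusted p 0.143 to 0.197). In 5 of 5 genes the level was lowest in replicate 3, a pattern that was not counted over all genes tested. The reverse, 0 counts in all msx1 libraries and at least 10 in each control library, was seen for 2 genes on chromosome 2 (125364885 to 125422366, and 126538859 to 126565346, which overlaps another gene). Both were below 2 CPM in the control and neither passed (edgeR adjusted p 0.201 and 0.172).

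Each msx1 library was then set against the control mean singly, over the 10105 genes with a mean of at least 5 CPM in either group. The standard deviation of the log2 ratio was 0.94 in replicate 1, 0.96 in replicate 2 and 0.76 in replicate 3, and 0.15 and 0.14 in the control libraries themselves. Replicates 1 and 2 had 792 and 837 genes more than 2-fold above the control mean, and 1285 and 1287 more than 2-fold below. Replicate 3 had 642 and 860, so it lay nearer to the control in both directions. Among the 151 higher genes the median log2 ratio was 2.10, 2.07 and 1.66 in replicates 1 to 3, and among the 248 lower genes -1.90, -1.73 and -1.66. Of the 151 higher genes, 142, 138 and 131 were more than 2-fold above the control mean in replicates 1 to 3. Of the 248 lower genes, 239, 235 and 220 were more than 2-fold below it. In replicate 3 this left 20 of the higher and 28 of the lower genes within 2-fold, whatever their ratio in replicates 1 and 2. These genes were chosen by the same libraries, so the values describe them and test nothing.

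At a cut of 4-fold, more genes set replicate 3 apart from both other msx1 libraries than set replicates 1 and 2 apart from each other. Of 10144 genes with at least 5 CPM in any msx1 library, 11 were more than 4-fold above both replicate 1 and replicate 2 in replicate 3, and 84 more than 4-fold below both. Between replicates 1 and 2, 18 genes differed by more than 4-fold. The 11 include the 3 tested genes of the chromosome 14 region, and the 84 include 2 W-linked and 5 Z-linked genes. None of the 11 and 18 of the 84 (21.4%) were among the 399 changed genes, which made up 2.83% of all genes tested. The same libraries gave both counts. The 2.83% also covers genes under 5 CPM in every msx1 library, so the shares rest on unlike sets of genes. Without replicate 3 the comparison called 190 higher and 217 lower genes, 297 of them among the 399.

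The Z and W chromosomes were taken apart from the autosomes. Of 141 W-linked genes listed, 23 were tested, and 0 passed in edgeR (1 had an unadjusted p under 0.05, and 0 passed in DESeq2 and 14 in limma-voom). Their median log2 fold change was 0.98, but this value stands for opposite shifts within the group. In 22 of the 23 genes, msx1 replicates 1 and 2 both lay above both control libraries, and in 17 replicate 3 lay below both. The 17 showed both patterns at the same time. Over all genes tested, 50.1% had no overlap between the 3 msx1 and the 2 control libraries, a different pattern that these 17 cannot show. The share of all genes tested with either of the W patterns was not counted. Summed over W, the msx1 group held 638 ± 354 CPM (SD, n = 3) and the control 373 ± 12.2 CPM (SD, n = 2), a ratio of 1.71 (exact two-sided permutation test, p = 0.4, where 3 against 2 libraries cannot go below 0.1).

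Z-linked RNA moved the other way from W. It summed to 40698 and 41436 CPM in the control, 34848 and 36313 CPM in msx1 replicates 1 and 2, and 43230 CPM in replicate 3. The sox3, sox10, tfap2b and double libraries held 45759 to 56325 CPM on Z, above every msx1 and control library. In the msx1 group, replicates 1 and 2 lay below both control libraries and replicate 3 above both. Over the group this was 38130 ± 4477 CPM (SD, n = 3) against 41067 ± 522 CPM (SD, n = 2; exact two-sided permutation test, p = 0.4). Among the 496 Z-linked genes with at least 5 CPM, the median log2 ratio to the control was -0.30 in replicates 1 and 2 and 0.00 in replicate 3, while the autosomal classes had medians of -0.26 to -0.03 in these libraries. Relative to the autosomes, Z lay at -0.17, -0.14 and 0.07 on the log2 scale in replicates 1 to 3. Dosage compensation between the sexes is incomplete in birds, so Z-linked RNA also follows the sex of the cells. Which embryos went into a library is not given in the labels.

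**Figure D3:**
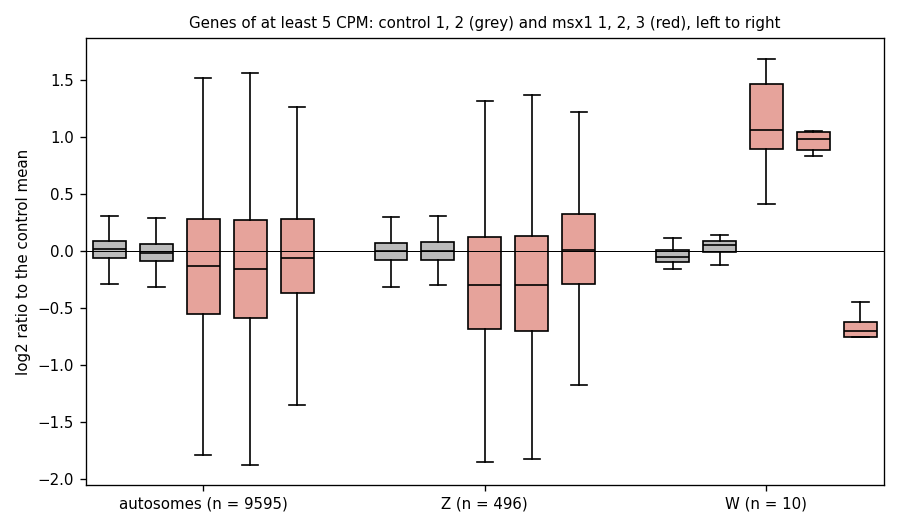
Log2 ratio of each gene to the control mean, for autosomal, Z-linked and W-linked genes of at least 5 CPM, in the 2 control (grey) and the 3 msx1 libraries (red); boxes show the quartiles and median and whiskers reach to 1.5 times the interquartile range. On W, msx1 replicates 1 and 2 have medians of 1.06 and 0.98 and replicate 3 of -0.70, and on Z the medians are -0.30, -0.30 and 0.00.

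Single Z-linked genes did not all follow these library-wide shifts. Of 689 tested, 6 were higher and 7 lower, or 1.89% against 2.83% of all genes tested. Both neighbours in a stretch of Z from 27945311 to 28068146 fell, and no other tested gene lies between their ends. The first (27945311 to 28026709, 16 exons) had 105 and 102 CPM in the control and 35.0, 38.5 and 37.4 CPM in msx1 replicates 1 to 3 (log2 fold change -1.49, SE 0.38, edgeR adjusted p = 0.0453). The second (28030127 to 28068146, 25 exons, on the opposite strand) had 105 and 113 CPM in the control and 20.3, 26.6 and 28.5 CPM in the msx1 libraries (-2.11, SE 0.27, edgeR adjusted p = 0.000704). Every msx1 library, replicate 3 included, was well below both control libraries for both genes. The second was also below the mean of the other 4 targeted groups, with a log2 difference of -1.17 (edgeR adjusted p = 0.000349).

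The largest fall among the 13 called Z-linked genes was that of a 4-exon gene (66811339 to 66876495) with 182 and 177 CPM in the control and 33.1, 35.5 and 34.2 CPM in the msx1 libraries (log2 fold change -2.39, SE 0.49, edgeR adjusted p = 0.0138). Again the 3 msx1 libraries were alike. A 3-exon gene (9297783 to 9298741) behaved otherwise, with 116 and 104 CPM in the control, 21.9 and 22.3 CPM in msx1 replicates 1 and 2 and 62.4 CPM in replicate 3 (-1.62, SE 0.41, edgeR adjusted p = 0.0424). Among the higher Z-linked genes, one of 20 exons (12272092 to 12333739) had 1.89 and 2.12 CPM in the control, 25.7 and 47.1 CPM in replicates 1 and 2 and 6.88 CPM in replicate 3 (3.72, SE 0.75, edgeR adjusted p = 0.0133). One of 26 exons (40665876 to 40717537) rose from 9.84 and 7.83 CPM to 40.9, 38.6 and 49.1 CPM (2.28, SE 0.43, edgeR adjusted p = 0.00875). With the W level of each library as a covariate, 7 Z-linked genes passed in place of 13, and over all genes 74 were higher and 130 lower.

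On the autosomes, changed genes were spread over all classes of chromosome. Macrochromosomes (1 to 5) had 75 higher and 107 lower of 6300 genes (2.89%), intermediate chromosomes (6 to 10) 25 and 44 of 2285 (3.02%) and microchromosomes (11 to 33) 45 and 90 of 4776 (2.83%). Over the 27 autosomes with at least 100 tested genes, the share ran from 1.64% on chromosome 18 to 4.90% on chromosome 21, and 19 of them had more lower than higher genes, 4 more higher and 4 equal numbers. Median log2 fold changes per chromosome lay between -0.15 and 0.05. The microchromosomes again showed replicate 3 apart, with medians over all their tested genes of -0.16, -0.19 and 0.02 in replicates 1 to 3, while the macrochromosomes had medians of -0.03, -0.03 and -0.04.

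Gene structure went with small shifts. In 5 bins of equal size by exonic length, the shortest genes (at most 1096 bp) had a median log2 fold change of -0.13, with 23 higher and 40 lower of 2819 genes (2.23%). The longest genes (3340 bp or more) had a median of 0.02, with 35 and 51 of 2815 (3.06%). Genes with more than 20 exons were the only exon class with more higher than lower members, 23 against 19 of 1720, at a median of 0.07. Single-exon genes had 4 and 7 of 567 at a median of -0.05. In genes with more than 20 exons the median log2 ratio to the control was -0.03, -0.003 and 0.12 in msx1 replicates 1 to 3. In the longest bin it was -0.05, -0.02 and 0.06, so in both classes only replicate 3 was positive. Median control levels rose with length, from 3.34 CPM in the shortest bin to 38.0 CPM in the longest, so depth and length move together in these shares.

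**Figure D4:**
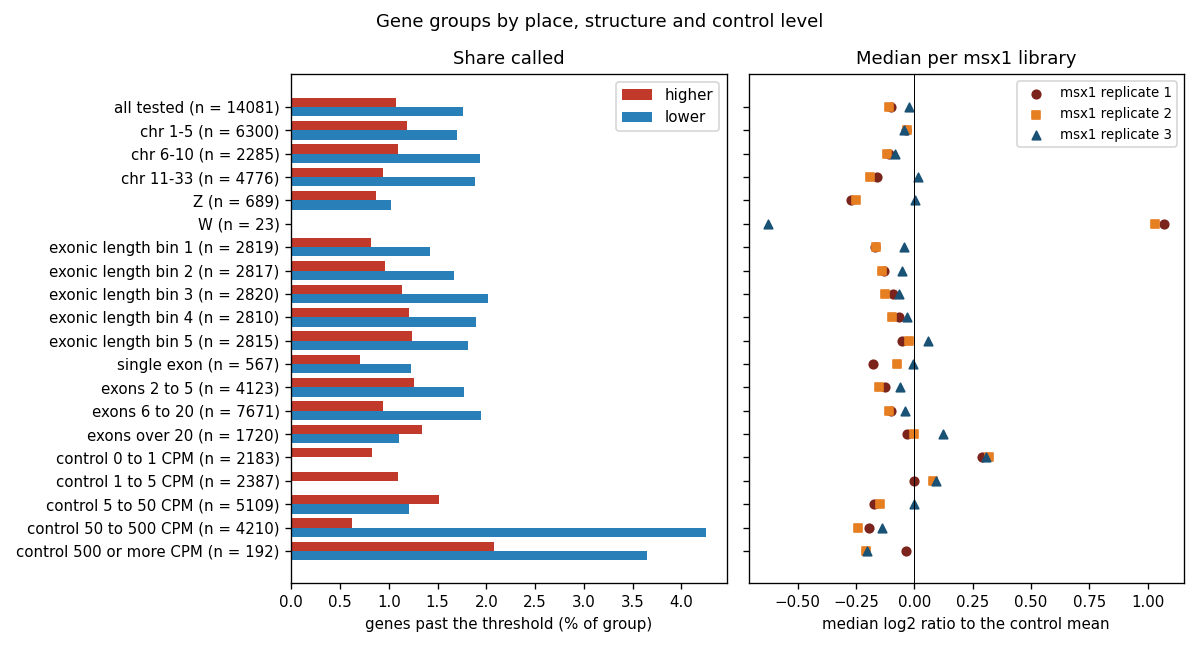
Left, share of each gene group that was higher (red) or lower (blue) in the msx1 group; right, median log2 ratio to the control mean in each msx1 library, with chromosome classes written chr and exonic length bins running from the shortest (1) to the longest (5). Lower genes reach 4.25% in the 50 to 500 CPM class, and the replicate 3 marker lies apart on W (-0.63 against 1.07 and 1.03).

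Some changed genes lay near each other on a chromosome. Counting genes called in the same direction whose starts were within 100 kb, 50 of the 248 lower genes (20.2%) fell into 23 runs, 4 of them of 3 genes, and 14 of the 151 higher genes (9.27%) into 7 pairs. Tested genes inside a run, its members included, numbered from 2 to 20, so the members of a run were not always adjacent. Of all genes tested, 9.92% had another gene that was called lower starting within 100 kb, and 4.78% had one called higher. These shares grow with the length of each list, and the difference from them was not tested. In 10 and 2 of these runs a gene overlaps another, so their reads cannot be told apart where the counting ignored strand, a setting not given in the sources used here.

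The pair with the largest falls lies on chromosome 7, where no other tested gene stands between its members. The first gene (17923778 to 17925509, 3 exons) had 98.2 and 87.5 CPM in the control and 4.26, 10.2 and 15.0 CPM in the msx1 libraries (log2 fold change -3.22, SE 0.75, edgeR adjusted p = 0.0295). The second (17927787 to 17970238, 10 exons) had 49.7 and 46.1 CPM in the control and 8.08, 7.20 and 9.81 CPM in the msx1 libraries (-2.51, SE 0.41, edgeR adjusted p = 0.00362). The second was below the mean of the other targeted groups (-1.02, edgeR adjusted p = 0.016), and for the first that difference did not pass (0.48, edgeR adjusted p = 0.503).

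On chromosome 19 the neighbouring pair held one of the firmest calls of the comparison. The gene at 3403634 to 3406149 (5 exons) had 301 and 259 CPM in the control and 36.7, 50.8 and 58.9 CPM in the msx1 libraries (log2 fold change -2.52, SE 0.24, edgeR adjusted p = 6.99e-05). Its upstream neighbour (3394140 to 3402980, 12 exons) had 250 and 208 CPM in the control and 50, 60.8 and 94.0 CPM (-1.75, SE 0.29, edgeR adjusted p = 0.00398). Against the other targeted groups they parted, the first being lower (-1.45, edgeR adjusted p = 2.51e-05) and the second higher (0.87, edgeR adjusted p = 0.00233) than their mean. A run of 3 on chromosome 14 (6917279 to 6962247, 7 tested genes in all) included a 10-exon gene (6936437 to 6941976) with 526 CPM in both control libraries and 97.9, 119 and 151 CPM in the msx1 libraries (-2.10, SE 0.20, edgeR adjusted p = 6.99e-05).

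Of the pairs that rose, one on chromosome 1 was also above the mean of the other targeted groups for both members. The gene at 75871016 to 75879214 (11 exons) had 60.5 and 62.5 CPM in the control and 243, 195 and 174 CPM in the msx1 libraries (log2 fold change 1.73, SE 0.32, edgeR adjusted p = 0.00805). Its neighbour at 75880172 to 75881531 (2 exons, same strand) had 26.5 and 27.9 CPM and 138, 110 and 73.8 CPM (1.98, SE 0.37, edgeR adjusted p = 0.00795). They lay above the mean of the other groups by 1.30 and 1.31 on the log2 scale (edgeR adjusted p = 8.67e-05 and 0.000248). Neither passed against sox3 alone, where the libraries held 122 to 123 CPM and 68.5 to 72.0 CPM, above both control libraries. The double libraries, at 91.7 to 136 CPM and 33.5 to 53.6 CPM, were above the control as well. The sox10 libraries held 42.1 to 64.7 CPM and 22.5 to 35.9 CPM, and the tfap2b libraries 49.6 to 102 CPM and 28.1 to 53.5 CPM.

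To see which changes were particular to msx1, the msx1 group was compared with the mean of the sox3, sox10, tfap2b and double groups. This contrast holds no control library. The msx1 group had 1 guide plasmid and these groups 2 or 3, so target and plasmid number cannot be told apart. Over all genes tested the msx1 group had 3196 higher (22.7%) and 2410 lower genes (17.1%), 39.8% in all. Of the 151 genes higher than the control, 50 were also higher than the other targeted groups (33.1%), 18 were lower and 83 showed no called difference. Of the 248 genes lower than the control, 77 were also lower than the other groups (31.0%), 43 were higher and 128 showed none. Both contrasts use the same 3 msx1 libraries, so these counts are not independent of the first comparison.

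Group by group, the fewest genes passed against sox3, the only other group of 2 libraries besides the control. Against sox3, 2 genes were higher (0.0142%) and 59 lower (0.419%), against sox10 3708 (26.3%) and 2893 (20.5%), against tfap2b 2749 (19.5%) and 2498 (17.7%), and against the double group 2379 (16.9%) and 2243 (15.9%). For the 151 higher genes the median log2 fold change against the shared control was 2.14 in the msx1 group, 1.66 in sox3, 2.12 in sox10, 1.91 in tfap2b and 2.21 in the double group. For the 248 lower genes these medians were -1.73, -0.82, -1.46, -1.76 and -2.18. All 5 comparisons use the same 2 control libraries, and the genes were chosen on one of them.

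Of all genes tested, the msx1 group was higher than sox3 in 2 (0.0142%) and lower in 59 (0.419%). These numbers cap any count that requires a difference from each of the other 4 targeted groups. The share of all genes tested that differed from all 4 was not counted. Within that limit, 5 of the 399 genes differed in the same direction from the control and from all 4 groups. All 5 were lower in the msx1 group. They lie on chromosomes 8 (28765755 to 28783828), 13 (14286413 to 14310398), 19 (3403634 to 3406149), 21 (566976 to 570600) and 33 (1630552 to 1633524), and those on 13 and 33 overlap another gene. The chromosome 8 gene had 393 and 376 CPM in the control, 124, 133 and 146 CPM in the msx1 libraries and 222 to 464 CPM in the other 11 libraries. The chromosome 13 gene had 418 and 414 CPM in the control, 97.3, 113 and 133 CPM in the msx1 libraries and 159 to 360 CPM in the others. The chromosome 33 gene had 239 and 222 CPM in the control, 58.2, 65.9 and 89.8 CPM in the msx1 libraries and 124 to 333 CPM in the others. For each of the 5, every msx1 library was below every other library of the series. The 5 were chosen by their differences from these same groups, so the values here describe them and test nothing. Log2 differences from the mean of the other groups were -1.66 to -1.07 (edgeR adjusted p 1.79e-05 to 0.000149).

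No gene rose against the control and against each of the other groups, where at most the 2 genes above sox3 could have done so. Of the 151 higher genes, 1 was also above sox3, a 5-exon gene on chromosome 1 (57724423 to 57794404) with 199 and 296 CPM in the control, 1031, 1076 and 833 CPM after msx1 targeting and, for sox3, 503 and 469 CPM (edgeR adjusted p = 0.00018 against the control and 0.0376 against sox3). It was above the tfap2b and double groups as well (edgeR adjusted p = 0.00873 and 0.0226), and against sox10 it missed the threshold (0.0509). Another 2 of the 151 were below sox3. The one on chromosome 26 (2653656 to 2657098, 9 exons) had 1.38 and 2.39 CPM in the control, 10.1, 12.1 and 7.53 CPM after msx1 targeting and 136 CPM in both sox3 libraries. The one on chromosome 8 (21980018 to 21986222, 6 exons) had 0.276 and 0.154 CPM in the control, 1.91, 4.06 and 3.03 CPM after msx1 targeting and, for sox3, 55.8 and 51.6 CPM.

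Among genes that passed both contrasts in 1 direction, were autosomal, did not overlap another gene and reached 5 CPM, 45 rose and 60 fell. The 2 in each direction with the largest difference from the other targeted groups are named. ENSGALG00000004083 (chromosome 13, 12326556 to 12434427, 17 exons) had 8.37 and 6.98 CPM in the control and 59.1, 53.2 and 50.3 CPM in msx1 replicates 1 to 3. The 3 msx1 libraries were close together, at 54.2 ± 4.47 CPM (SD, n = 3) against 7.68 ± 0.982 CPM (SD, n = 2), a 7.06-fold difference (log2 fold change 2.82, SE 0.73, edgeR adjusted p = 0.0487). The sox3 libraries held 13.4 and 17.4 CPM, the sox10 libraries 0.514 to 1.80 CPM, the tfap2b libraries 0.295 to 3.82 CPM and the double libraries 4.64 to 8.38 CPM. No library outside the msx1 group came above 17.4 CPM, and the log2 difference from the mean of the other groups was 3.75 (SE 0.42, edgeR adjusted p = 6.6e-06). Its call against the control is a narrow one, lost without any 1 of the 5 libraries, with the close pairs summed and with either covariate.

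ENSGALG00000005401 (chromosome 2, 2612356 to 2663357, 5 exons) had 7.08 and 5.98 CPM in the control and 31.3, 62.2 and 19.6 CPM in the msx1 libraries. Here the msx1 libraries were far apart (37.7 ± 22.0 CPM, SD, n = 3, against 6.53 ± 0.781 CPM, SD, n = 2), and replicate 3 came close to the sox3 libraries, at 15.9 and 19.3 CPM. The log2 fold change against the control was 2.53 (SE 0.61, edgeR adjusted p = 0.0363), and the call was lost with the replicate block (edgeR adjusted p = 0.0513), with the W level as a covariate, with the close pairs summed, and without a control library or msx1 replicate 1 or 2. The sox10 libraries held 0.137 to 0.360 CPM, from 1 to 3 counts each, and the difference from the mean of the other groups was 3.45 (SE 0.37, edgeR adjusted p = 4.95e-06).

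ENSGALG00000028958 (chromosome 21, 566976 to 570600, 8 exons), one of the 5 genes above, had 70.6 and 73.6 CPM in the control and 19.4, 24.7 and 25.4 CPM in the msx1 libraries. The fall was 3.11-fold (log2 fold change -1.63, SE 0.27, edgeR adjusted p = 0.00437). The SD was 2.15 CPM in the control (n = 2) and 3.29 CPM in msx1 (n = 3). Genes were named only where the 2 groups did not overlap, so a fall beyond this spread was fixed by the choice. The other groups ranged from 45.3 CPM in a double library to 143 CPM in a sox10 library, and the sox3 libraries had 69.7 and 55.5 CPM. Of 17 alternatives, the call was lost in 3, which left out a control library or summed the close pairs.

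ENSGALG00000006035 (chromosome 5, 10434605 to 10509846, 16 exons) had 27.9 and 32.5 CPM in the control and 9.55, 12.9 and 10.1 CPM in the msx1 libraries, a 2.78-fold fall (log2 fold change -1.47, SE 0.37, edgeR adjusted p = 0.0419). The other 11 libraries held 23.0 to 87.0 CPM, all above the msx1 libraries. The log2 difference from their group mean was -1.69 (SE 0.30, edgeR adjusted p = 0.00031), and it did not pass with the W level (0.0702) or the chromosome 14 region (0.0575) as a covariate. Its call against the control was lost in 10 of 17 alternatives, which were RLE scaling (edgeR adjusted p = 0.0521), the replicate block (0.0662), both covariates (0.122 and 0.125), the summed close pairs and the omission of any 1 of the 5 libraries.

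**Figure D5:**
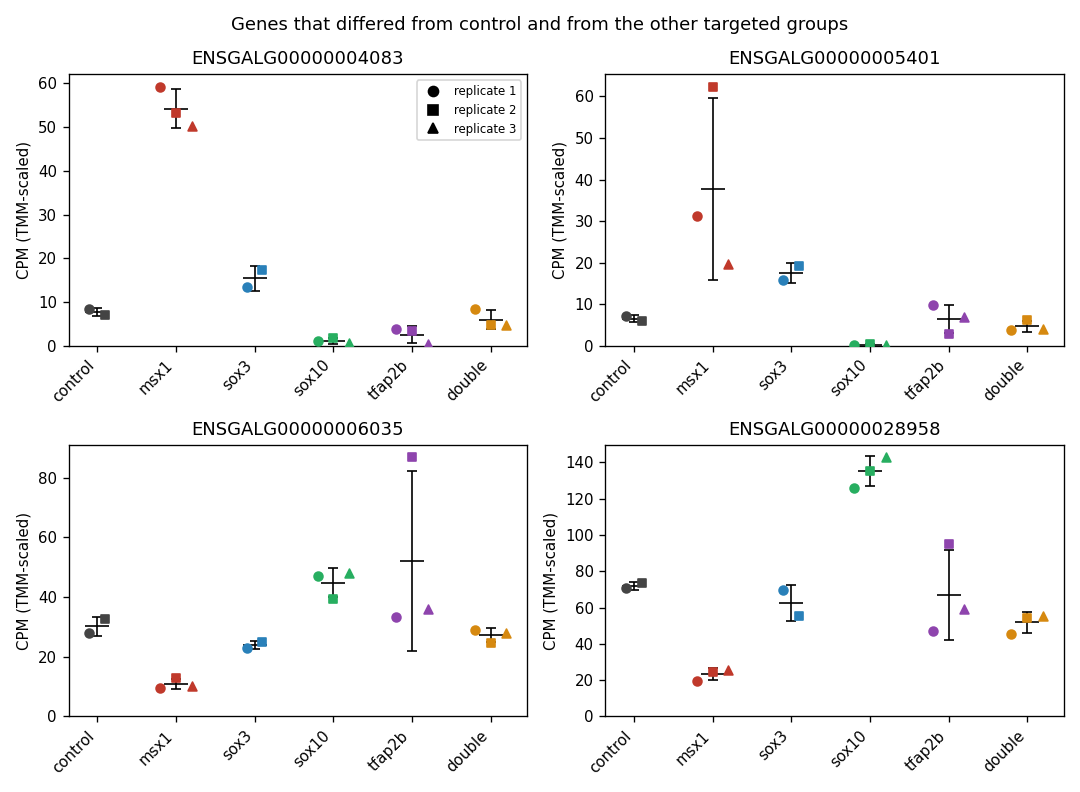
Level in CPM (TMM-scaled) of the 4 named genes in all 16 libraries; colour gives the group, the marker the replicate, and bars the mean and SD per group. Both genes in the upper row are highest in the msx1 libraries (19.6 to 62.2 CPM), and both in the lower row are lowest there (9.55 to 25.4 CPM).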

How the data were processed

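RNA was read as 40 bp pairs from SMART-Seq v4 libraries, per the labels' protocols. STAR 2.4.2a, Subread 1.4.5, featureCounts, DESeq2 and galGal5 are named in the submitters' processing notes. The deposited values are raw counts per gene, as the authors' counting gave them, and settings for strand and multiply mapped reads are not given in the sources used here. Of 24881 genes listed, 7091 had no count, all 37 mitochondrial features included, and 14081 passed edgeR's default expression filter.

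All 16 libraries were fitted in 1 model with edgeR 4.0.16 (R 4.3.3; TMM, robust quasi-likelihood test, group as the only term), which left 10 residual degrees of freedom and a common biological coefficient of variation of 0.478. P-values were Benjamini-Hochberg adjusted over all genes tested at a threshold of 0.05. Fold changes are model estimates, and levels are counts scaled to a common library total (CPM). Log2 ratios per library used a pseudocount of 0.5 CPM. The script was tested on simulated data. These were drawn independently for each library with the same spread per gene, so they held no close pairs and no library set apart. DESeq2 1.42.0, limma 3.58.1, other filters and scalings, libraries left out and added covariates were alternatives. Floors cover counting error only. Each SE was derived from the log2 fold change and its quasi-likelihood test statistic, so it includes the spread between libraries.

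Replicate numbers were not taken to pair samples, since deviations from the group means correlated at -0.02 for number 1 and 0.08 for number 2 between control and msx1. Named genes had to be autosomal, not overlap another gene, reach 5 CPM in 1 group, show no overlap between msx1 and control libraries, pass against the control and in the same direction against the mean of the other targeted groups, and were ranked by the latter difference. The comparison, gene groups and tests were chosen with earlier results of these data known.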

Additional observations from a re-analysis of the deposited data

Results flagged for a closer look

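The 4 named genes differed in the msx1 group from the mean of the sox3, sox10, tfap2b and double groups. That contrast has no control library in it, and guide and number of guide plasmids change together in it. Of all genes tested, 39.8% passed it (Benjamini-Hochberg adjusted p in edgeR's quasi-likelihood test). The 4 genes were picked by the size of that difference, so the values describe them. The log2 difference was 3.75 for ENSGALG00000004083 and 3.45 for ENSGALG00000005401, and every msx1 library was above every other library of the series for both. It was -1.69 for ENSGALG00000006035 and -1.66 for ENSGALG00000028958, with every msx1 library below every other library. The difference of ENSGALG00000006035 did not pass with the W level (edgeR adjusted p = 0.0702) or the chromosome 14 region (0.0575) as a covariate, and those of the other 3 genes passed in all 15 alternatives. Against the sox3 group alone only ENSGALG00000028958 passed (edgeR adjusted p = 0.0289), and the others had edgeR adjusted p-values of 0.31 to 0.742.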

How the results depend on the processing

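The count of genes that passed against the control depended on how the spread was estimated. The direction of all 399 did not turn under any alternative that tested them (386 where Z and W were left out). The alternatives reuse the same libraries, and for these genes the msx1 and control libraries did not overlap. Their direction was thus largely fixed in advance and tests nothing. Higher and lower genes numbered 516 and 515 with DESeq2, 2201 and 3207 with limma-voom, and 1089 and 1178 with the msx1 and control libraries fitted alone. A fit of control, sox3 and msx1 libraries alone, chosen after seeing the data, gave 1455 and 1482. With the close pairs summed, 0 and 0 passed in edgeR (smallest adjusted p 0.0747), and 3209 in place of 5606 differed from the other targeted groups. The W level as a covariate gave 74, 130 and 2061 for these 3 counts, and the chromosome 14 region as a covariate 87, 111 and 2376. Leaving out 1 library gave 7 to 190 higher and 35 to 217 lower genes, the fewest without control replicate 1, and 4266 to 5208 against the other groups. Here a group left with 1 library is assumed to vary like the others. The cause of these moves was not tested. The replicate block gave 155 higher and 207 lower genes, with 309 of the 399 kept, but the numbers showed no pairing. The summed W ratio of 1.71 ran from 1.43 to 2.26 and the Z ratio of 0.928 from 0.866 to 0.968 with 1 library left out. RLE scaling moved the all-gene median from -0.05 to 0.00, and the macrochromosome median from -0.01 to 0.04. Depth was lowest in msx1 replicate 1, at 5721022 counts. How far this limits the genes under 1 CPM was not tested.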
